A study of Mus musculus with 23 samples.

Results

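Rhpn1, Gramd3, Sh2d1a, Cyp17a1, Cdh22, Klhl30, As3mt, Phactr3 and Lpin1 were followed across liver natural killer (NK) cells and type 1 innate lymphoid cells (ILC1s) of the mouse. The 9 genes were chosen by symbol because their RNA was high in NK cells and low in ILC1s, and because little is known of most of them in NK cells. All 9 of them were found among the 35645 entries of the RNA table, and all 9 passed the filter on low counts. The chromatin table held 43 peaks assigned to them among 51412 peaks, and 42 of the 43 passed its filter. The RNA levels in NK cells and ILC1s chose these genes, and an intermediate level in DN cells was known beforehand, so those levels are given as a description without a test. Chromatin accessibility and the difference between the FMSP and DP populations did not enter the choice and were tested.

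The RNA came from 15 liver libraries of 6 mice, each library holding every sorted cell of 1 population from 1 mouse. DN cells are ILC1s negative for granzyme C (GzmC) and for a fate-map label that records its past use (GzmC-GzmcFM-; mice 2, 4 and 6). FMSP cells carry the label but no current granzyme C (GzmC-GzmcFM+), and DP cells carry both (GzmC+GzmcFM+), each from mice 3, 4, 5 and 6. NK cells were sorted as S1pr5eGFP+ cells (mice 1, 4, 5 and 6). The assay for transposase-accessible chromatin (ATAC-seq) had 2 libraries each of salivary gland ILC1s, liver ILC1s, spleen NK cells and liver NK cells, from 50000 sorted cells per library. The labels give no age, sex or strain, and they disagree on the ATAC gate. One label describes the ILC1s and NK cells by surface proteins (CD49a and CD49b) and another by the reporters. No ATAC library separates DN from FMSP or DP cells.

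RNA libraries held 51641248 to 73309063 counts and ATAC libraries 5609587 to 26944890 reads in peaks. Cxcr6, a chemokine receptor of liver-resident lymphocytes, averaged 780 counts, scaled to a common library sum (CPM), in DN, 1052 in FMSP, 1255 in DP and 3.98 in NK cells, as the population labels would have it. The 16 established NK cell genes used for comparison summed to 1287 to 2647 CPM in DN and 1138 to 1508 in FMSP libraries. In DP they summed to 936 to 1574 and in NK to 13142 to 16759 CPM. Genes in this sum differed widely. Prf1 averaged 460 CPM in FMSP and 477 in DP, and Klra9 326 and 389, against 5.49 and 2.79 for Eomes. The 18 hepatocyte markers summed to 242 to 1060 CPM in DN, 173 to 2484 in FMSP, 209 to 397 in DP and 78.4 to 217 in NK libraries. The 3 highest libraries were DN of mouse 2 and FMSP of mice 5 and 6. Among these 18 markers, Trf averaged 150 CPM in DN, 254 in FMSP, 229 in DP and 54.0 in NK cells. Alb averaged 65.9, 223, 8.43 and 17.9 CPM in the same order, so the DP sums do not stand for hepatocyte markers in general. The 14 T cell markers summed to 2447 to 3210 CPM in DN, 2301 to 3813 in FMSP, 2155 to 3215 in DP and 914 to 1254 in NK libraries. Sums of 10 Kupffer cell markers reached 315 CPM in DN, 141 in FMSP, 239 in DP and 75.2 in NK libraries. Those of 8 B cell markers ran from 748 to 793 CPM in DN and 581 to 1233 in FMSP libraries. Their range was 620 to 1245 CPM in DP and 299 to 759 in NK libraries, where the median was 317. Sums of 8 liver endothelial markers reached 181 CPM in DN, 186 in FMSP, 166 in DP and 105 in NK libraries. Of all these markers only Lyve1, an endothelial gene, was at 0 in a population, in NK cells.

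NK cells and ILC1s are innate lymphocytes that share the receptors NK1.1 and NKp46. NK cells circulate and depend on the T-box factor Eomes, whereas liver ILC1s stay in the tissue and develop without it. The 9 genes have unrelated products: an adaptor of immune receptors (Sh2d1a), proteins linked to the cytoskeleton (Rhpn1, Phactr3), a cadherin (Cdh22), metabolic enzymes (Lpin1, As3mt, Cyp17a1), a kelch-family protein (Klhl30) and a membrane-contact protein (Gramd3). Sh2d1a is the exception to the description as little studied, since its product SAP has long been studied in T and NK cells.

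RefSeq promoter windows (build GRCm38.p6) were available for 3 of the 9 genes: Cdh22, As3mt and Lpin1. The As3mt and Cdh22 windows overlapped ATAC peaks assigned to the same gene and are shown because those peaks were tested, while the Lpin1 window overlapped no peak. Each string holds 250 bases, 5′ to 3′ on the gene's strand, and capitals mark every match to a searched motif on either strand. The windows do not lie before the outer start of the annotated genes. The As3mt window lies inside the gene span chr19:46707157-46741099. Most of the Cdh22 window lies inside chr2:165111501-165234924. The Lpin1 window, chr12:16610967-16611216, lies inside chr12:16535669-16653903, so it does not describe the outer start of Lpin1.
As3mt, chr19:46707208-46707457, plus strand: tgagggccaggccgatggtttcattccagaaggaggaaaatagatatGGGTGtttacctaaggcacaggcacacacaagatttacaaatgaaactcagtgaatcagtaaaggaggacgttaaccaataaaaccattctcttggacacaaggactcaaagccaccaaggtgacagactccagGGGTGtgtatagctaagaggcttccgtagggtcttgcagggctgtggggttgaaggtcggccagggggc
Cdh22, chr2:165234738-165234987, minus strand: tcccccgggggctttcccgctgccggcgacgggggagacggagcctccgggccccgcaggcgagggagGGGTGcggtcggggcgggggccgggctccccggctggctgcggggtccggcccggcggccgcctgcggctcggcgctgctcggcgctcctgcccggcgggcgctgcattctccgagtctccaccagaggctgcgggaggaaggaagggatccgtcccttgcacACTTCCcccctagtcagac
The KLF motif CACCC matched at 2 places in As3mt and at 1 in Cdh22, written as its reverse complement GGGTG, and 52.0% of 32851 promoter windows held it. The ETS motif GGAAGT matched at 1 place in Cdh22, as ACTTCC, and 19.7% of windows held it. The T-box motif AGGTGT, held by 11.8% of windows, and the RUNX motif TGTGGT, held by 14.0%, had no match in these windows or in that of Lpin1. The Lpin1 window held 2 matches of the KLF motif and 2 of the ETS motif. The motifs did not overlap each other in these windows.

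Sh2d1a encodes SAP, the adaptor that couples SLAM-family receptors to the kinase Fyn. Its level was 22.7, 40.0 and 19.9 CPM in DN of mice 2, 4 and 6, 2.69, 3.68, 3.19 and 16.2 CPM in FMSP of mice 3, 4, 5 and 6, and 1.45, 3.56, 3.01 and 5.03 CPM in DP of the same mice. NK of mice 1, 4, 5 and 6 held 115, 93.7, 78.7 and 156 CPM. The DN libraries lay between the other ILC1 libraries and the NK libraries with no overlap on either side. DN averaged 24.9% of the NK mean, FMSP 5.82% and DP 2.95%. In bulk RNA, fewer cells of a type and less RNA per cell cannot be told apart.

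Rhpn1 encodes a scaffold protein linked to the actin cytoskeleton. It stood at 12.6, 5.23 and 3.91 CPM in DN, against 34.4, 21.9, 52.4 and 26.8 CPM in NK libraries. Only 1 count was found over the 4 FMSP libraries (0.0150 CPM in mouse 5), and none over the 4 DP libraries. DN averaged 7.23 ± 4.66 CPM (SD, n = 3), or 21.4% of the NK mean of 33.9 ± 13.4 CPM (SD, n = 4). The FMSP count corresponds to 0.0119% of the NK level, with a 95% Poisson interval from 0.000302% to 0.0665% that covers counting error only. DP was at least 2748-fold lower than NK, taken against a floor of 3 counts over the group. Rhpn1 RNA was thus detected in each DN library and at or near 0 in each FMSP and DP library.

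Phactr3 encodes a protein that binds actin and a phosphatase. Its level was 4.35, 32.8 and 8.998 CPM in DN, 0.459, 2.43, 2.45 and 1.13 CPM in FMSP, 0, 0, 1.85 and 0 CPM in DP, and 123, 124, 151 and 146 CPM in NK libraries. DN averaged 11.3% of the NK mean, FMSP 1.19% and DP 0.339%. The DN libraries spread widely, and all 3 lay above every FMSP and DP library and below every NK library.

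Cdh22 encodes a cadherin, a calcium-dependent adhesion protein known mainly from brain. It stood at 0, 5.70 and 0.310 CPM in DN of mice 2, 4 and 6, 0, 0.385, 0.479 and 0.0176 CPM in FMSP of mice 3 to 6, and 106, 52.2, 32.2 and 41.0 CPM in NK libraries, with 0 in all 4 DP libraries. The DN mean of 2.00 ± 3.20 CPM (SD, n = 3) was 3.46% of the NK mean and rested on the library of mouse 4. DN and FMSP libraries overlapped, so Cdh22 was not graded between them beyond the spread of the libraries.

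Lpin1 encodes lipin 1, which converts phosphatidate to diacylglycerol and also acts as a transcriptional coactivator. Its level was 23.8, 59.2 and 49.9 CPM in DN, 37.7, 41.2, 37.0 and 39.6 CPM in FMSP, 31.0, 21.1, 36.0 and 17.3 CPM in DP, and 363, 293, 351 and 194 CPM in NK libraries. DN kept 14.8% of the NK mean, FMSP 13.0% and DP 8.79%. The DN range contained the whole FMSP range, so the 2 populations were not separated for this gene.

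As3mt encodes the methyltransferase that methylates arsenic. It stood at 16.0, 51.7 and 17.1 CPM in DN, 14.9, 6.78, 1.82 and 5.15 CPM in FMSP, 6.23, 0.364, 5.02 and 7.42 CPM in DP, and 190, 193, 195 and 217 CPM in NK libraries. DN averaged 14.2% of the NK mean, FMSP 3.61% and DP 2.40%. The lowest DN library lay just above the highest FMSP library, and the NK libraries were close together.

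Cyp17a1 encodes the cytochrome P450 that makes precursors of androgens and, through hydroxylation, of cortisol in many mammals. Its level was 11.4, 15.6, 14.1 and 14.4 CPM in NK libraries, whereas 3 counts (0.0369 CPM, in mouse 4) were found over the 3 DN libraries. Those 3 counts correspond to 0.0999% of the NK level, with a 95% Poisson interval from 0.0206% to 0.292%. With 0 counts in every library, FMSP was at least 1142-fold and DP at least 1125-fold lower than NK. Cyp17a1 was the member of which DN cells kept the smallest share.

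Klhl30 belongs to the kelch-like family, many of whose members recruit substrates to a ubiquitin ligase. It stood at 4.15, 14.0 and 0.0489 CPM in DN of mice 2, 4 and 6, the last of these from 3 counts, against 73.0, 32.2, 29.4 and 28.5 CPM in NK libraries. All FMSP and DP libraries held 0 counts, and FMSP was at least 3359-fold lower than NK. The DN mean of 6.07 ± 7.17 CPM (SD, n = 3) was 14.9% of the NK mean, but the DN library of mouse 6 was close to the level of FMSP and DP.

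Gramd3 encodes a GRAM-domain protein of contact sites between the endoplasmic reticulum and the plasma membrane. Its level was 34.7, 50.1 and 47.0 CPM in DN, 5.78, 8.24, 8.76 and 21.4 CPM in FMSP, 2.84, 3.13, 2.75 and 2.86 CPM in DP, and 18.7, 28.4, 20.6 and 29.3 CPM in NK libraries. Here the order differed from that of the other 8 genes: every DN library lay above every NK library. DN averaged 43.9 ± 8.13 CPM (SD, n = 3) and NK 24.2 ± 5.39 CPM (SD, n = 4), so the DN level was 181% of the NK level. Gramd3 is therefore low in DP cells and in most FMSP libraries but not in DN cells, which goes against its description as a gene low in ILC1s. Several of the 14 T cell markers had the same order among ILC1s as Gramd3 and Sh2d1a, but the sum of the 14 did not. The median of that sum over libraries was 2552 CPM in DN, 3083 in FMSP and 2792 in DP. Cd3e averaged 293 CPM in DN, 189 in FMSP, 29.5 in DP and 10.8 in NK cells, and Cd6 averaged 47.5 CPM in DN, 14.1 in FMSP, 0.389 in DP and 1.04 in NK cells. Trac averaged 235 CPM in DN, 139 in FMSP, 26.4 in DP and 18.9 in NK cells, whereas Cd3g averaged 333 CPM in DN, 675 in FMSP, 749 in DP and 7.51 in NK cells. No T cell marker was called by edgeR between DN and the mean of FMSP and DP, and their part in the DN levels of the members was not tested.

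**Figure D1:**
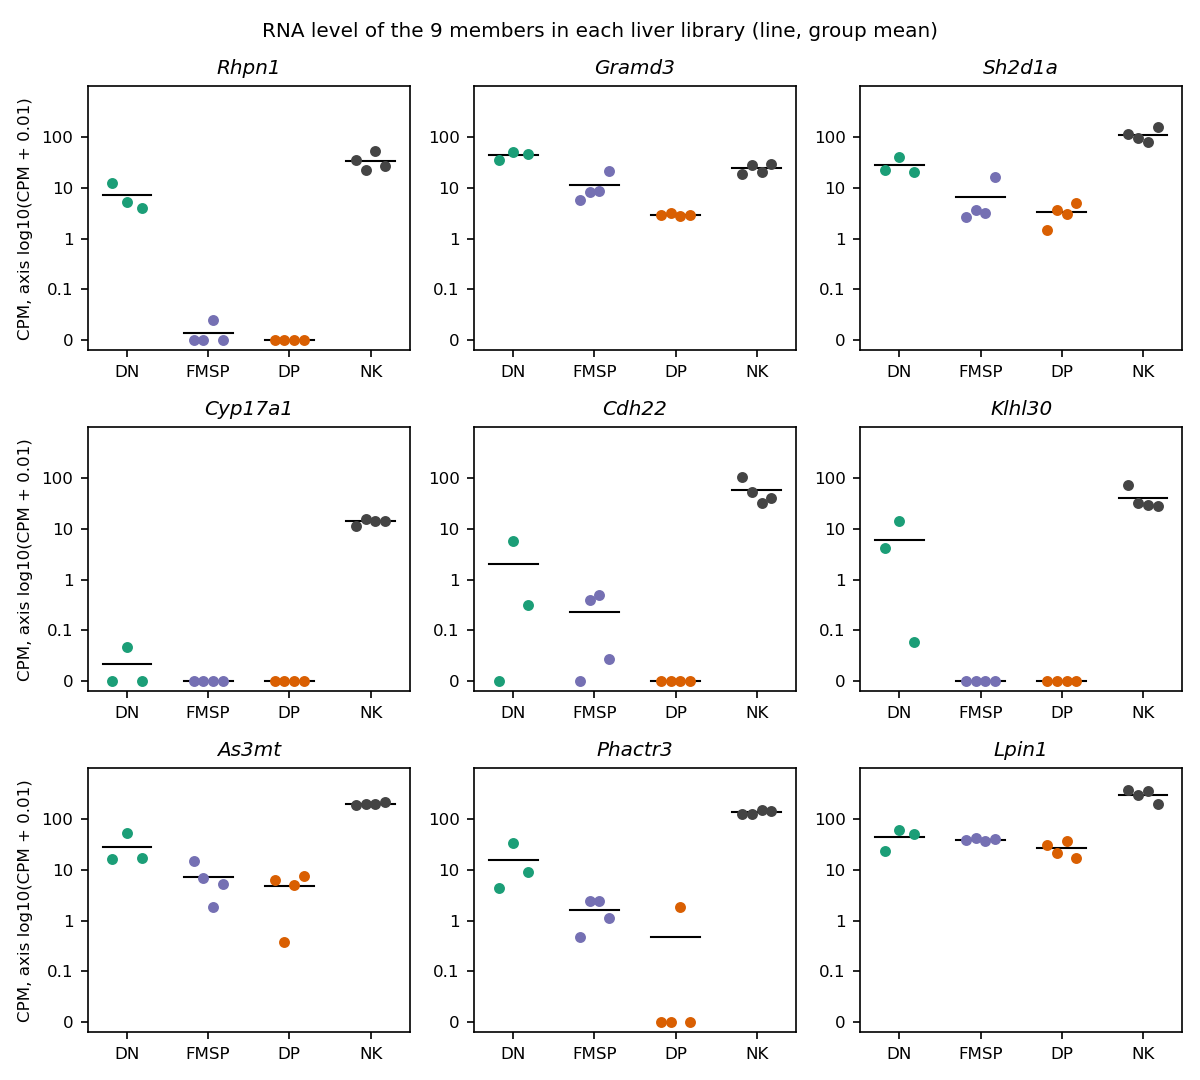
RNA level of the 9 genes in each liver library, in CPM on a log10(CPM + 0.01) axis, with DN, FMSP, DP and NK from left to right; points are libraries and lines are group means. The NK libraries lie above all DN libraries for 8 genes, and the DN libraries lie above the NK libraries for Gramd3.

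The order DN above FMSP and DP was not shared by all 9 genes. Libraries of DN lay above those of FMSP without overlap for 6 genes (Rhpn1, Gramd3, Sh2d1a, Klhl30, As3mt and Phactr3) and above those of DP for the same 6. The margin was narrow for Klhl30, with 3 counts in DN of mouse 6 against 0 in FMSP and DP. It was also narrow for As3mt, with 16.0 CPM in DN of mouse 2 against 14.9 CPM in FMSP of mouse 3. Among 17104 named genes tested, the share with DN libraries wholly above was 2.55% against FMSP and 4.12% against DP. By edgeR, 0.239% of all 17124 genes tested were called between DN and the mean of FMSP and DP. For Cyp17a1, Cdh22 and Lpin1 the libraries overlapped. DN libraries lay below the NK libraries for 8 genes and above them for 1, where 2.99% of all genes were called between DN and NK, 1.18% lower and 1.81% higher. Without overlap, 7.41% of named genes had their DN libraries below NK and 7.37% above. FMSP libraries lay below NK for 8 genes, where 4.07% of all genes were called, 1.59% lower and 2.48% higher. DP libraries lay below NK for 9 genes, where 4.08% were called, 1.58% lower and 2.51% higher. Of named genes, 5.12% had every FMSP library and 5.39% every DP library below NK. These 3 comparisons with NK chose the genes, so their counts are not a finding. An intermediate level in DN was known beforehand, so the counts of DN above FMSP and DP are not a finding either.

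The share of the NK level that DN kept differed between the 3 DN mice. It was highest in mouse 4 for 8 of the 9 genes and in mouse 2 for Rhpn1. Over the 9 genes the median share was 8.06% in mouse 2 (range 0 to 143%), 24.1% in mouse 4 (0.266 to 207%) and 8.60% in mouse 6 (0 to 194%). The 16 established NK cell genes, among them Eomes, the Ly49 receptor gene Klra4 and S1pr5, whose reporter sorted the NK cells, had medians of 6.60% in mouse 2 (1.18 to 21.2%), 18.95% in mouse 4 (11.5 to 36.3%) and 9.004% in mouse 6 (4.41 to 23.6%). All 16 had their highest DN share in mouse 4. The share of all genes that were highest in DN of mouse 4 was not counted, so these counts are a description only. The DN library with the most RNA of established NK cell genes was also the highest for 8 of the 9 members. Whether NK cells in that sort, or NK genes used by DN cells, account for this was not tested. The shares in that library were uneven. Set against NK of the same mouse, DN of mouse 4 held from 0.237% for Cyp17a1 (3 counts) to 177% for Gramd3, with a median of 26.4% over the 9 members. Over the 16 established genes these shares ran from 11.9% to 44.0%.

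Averaged over DN libraries, the shares of 6 members lay within the range of the established genes, which ran from 5.96% for Cma1 to 25.1% for S1pr1. Gramd3 lay above that range at 181%, and Cdh22 at 3.46% and Cyp17a1 at 0.0887% (mean of the libraries) lay below it. The established genes had a median share of 12.7% in DN, 4.79% in FMSP and 2.38% in DP, but not all were graded through DN. Klra9 kept 18.7% in DN, 41.4% in FMSP and 49.5% in DP. Prf1 was flat, at 16.0%, 16.4% and 17.0%. Set against NK cells of the same animal, DN kept 42.7% of Sh2d1a in mouse 4 and 12.8% in mouse 6. For As3mt these shares were 26.9% and 7.87%, and for Phactr3 26.4% and 6.18%. Klhl30 varied most between the 2 mice, at 43.5% in mouse 4 and 0.172% in mouse 6. Lpin1 and Gramd3 were closer, at 20.3% and 25.8% for Lpin1 and 177% and 160% for Gramd3.

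**Figure D2:**
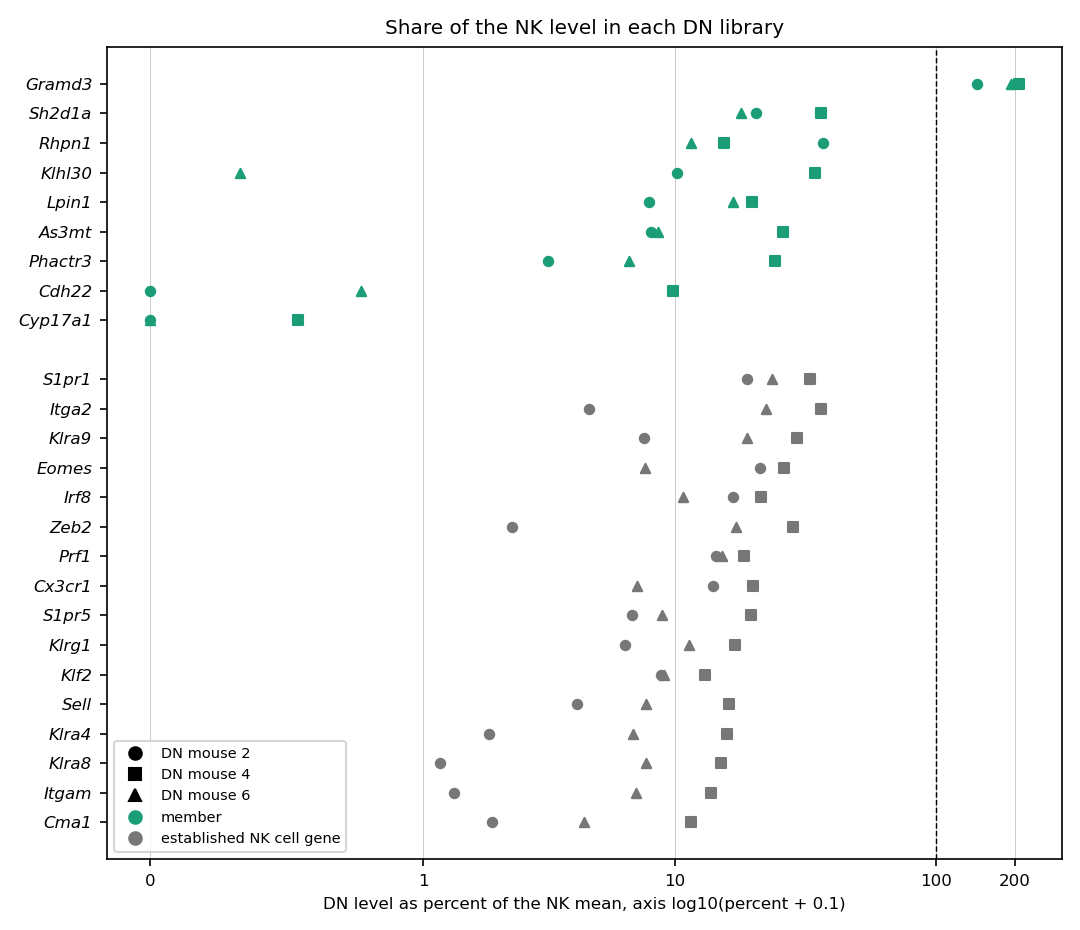
Level in each DN library as a percent of the NK mean, on a log10(percent + 0.1) axis, for the 9 members (green, upper block) and 16 established NK cell genes (grey, lower block); symbols mark mice 2, 4 and 6 and the dashed line marks the NK mean. Squares (mouse 4) are furthest right for 8 members and for all 16 established genes.

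FMSP cells were compared with DP cells to ask whether the members still differ once the fate-map label is present. Cyp17a1 and Klhl30 had 0 counts in both populations and could not differ, which left 7 members. Of these 7, Rhpn1 had 1 count over both populations, too few for a call, so its outcome carries no information. By the quasi-likelihood test of edgeR with Benjamini-Hochberg adjustment over all genes, 0 of the 7 were called, where 0.00584% of all genes were called. At an unadjusted p under 0.05 there were 2 members, Gramd3 and Cdh22. DESeq2 called 1, Gramd3, where it called 1.3% of all genes, and it gave Phactr3 no adjusted p. Gramd3 averaged 11.04 ± 7.02 CPM in FMSP and 2.89 ± 0.163 CPM in DP (SD, n = 4 each), and every FMSP library lay above every DP library. Its log2 difference of 1.93 ± 0.37 (SE) had an adjusted p of 1 in edgeR, 0.636 with the mouse as a block and 2.06e-05 in DESeq2. The FMSP library of mouse 6, at 21.4 CPM, also had the highest sum of hepatocyte markers, 2484 CPM, and the part of this in the result was not tested. Lpin1 also separated without overlap, as 0.649% of named genes did in this direction, at 38.9 ± 1.89 CPM in FMSP and 26.4 ± 8.65 CPM in DP (SD, n = 4 each), with a log2 difference of 0.56 ± 0.30 (SE).

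Partners and relatives of the members were mostly not called between ILC1s and NK cells. For the mean of the 3 ILC1 populations against NK, edgeR called 5.92% of all genes, 2.9% as higher and 3.02% as lower, and the median over all genes was 0.08 on the log2 scale. Of 15 SLAM receptors and SAP partners tested, 0 were higher and 1 lower. The lower gene was Fyn, the kinase recruited by SAP, at 406 CPM in DN, 385 in FMSP, 335 in DP and 962 in NK cells (log2 difference -1.36 ± 0.14, SE; adjusted p = 2.13e-05). The median of that list was -0.14. With the mouse as a block, where 12.7% of all genes were called (5.4% higher and 7.26% lower), 2 of the 15 were higher (Slamf7 and Cd244a) and 3 lower (Fyn, Cd48 and Ptpn11).

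None of 22 phosphatidate and glycerolipid genes was called in edgeR, with a median of -0.00, but 3 were lower with the mouse as a block (Agpat2, Agpat3 and Cnep1r1). Lpin2, a second lipin, stood at 68.4 CPM in DN, 80.7 in FMSP, 79.8 in DP and 64.8 in NK cells. None of the 10 steroid synthesis genes that passed the filter, of 18 listed, was called either, with a median of 0.25.

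Among 24 paralogues of the members, 2 were higher and 2 lower in ILC1s (4 and 2 with the mouse as a block), with a median of 0.25. Cdh17, a cadherin best known from intestine and B cells, stood at 13.3 CPM in DN, 98.5 in FMSP, 124 in DP and 0.657 in NK cells (log2 difference 6.37 ± 0.71, SE; edgeR adjusted p = 4.27e-05), the opposite direction to Cdh22. Gramd1a, a sterol transporter at membrane contacts, was higher in ILC1s (1.30 ± 0.28, SE; edgeR adjusted p = 0.0104). That call was lost when NK of mouse 1 was left out. It held with the mouse as a block (edgeR adjusted p = 7.49e-05) and within mice 4 to 6 (edgeR adjusted p = 2.46e-05). Gramd4 was lower, at 63.7 CPM in DN, 69.0 in FMSP, 76.4 in DP and 331 in NK cells (-2.25 ± 0.26, SE; edgeR adjusted p = 6.29e-05). Klhl6, known from B cell signalling, was also lower (-1.34 ± 0.22, SE; edgeR adjusted p = 0.00142).

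Between DN and the mean of FMSP and DP, edgeR called 0.21% of all genes higher and 0.0292% lower. In the partner and paralogue lists 0 genes were called, with 0 also called on the hepatocyte and T cell lists (1 T cell gene, Cd28, when blocked by mouse, at an edgeR adjusted p of 0.0367), while 6 of 16 established NK cell genes were higher in DN. The 2 with the largest log2 differences were Cma1, a chymase gene (4.87), and Eomes (4.36). With DN of mouse 2 and FMSP of mice 5 and 6 left out, 3 genes of these lists were called, the NK genes Cma1, Klra4 and Klra8. Eomes was not called then (edgeR adjusted p = 0.133). Against NK, the 16 established NK cell genes fell without exception (median -4.39). Of 14 T cell markers, 9 were higher and 1 lower. Of 18 hepatocyte markers 1 was higher, Trf (edgeR adjusted p = 0.000207), and of 8 B cell markers 1 was higher. The B cell call was lost without NK of mouse 4, of mouse 5 or of mouse 6. No Kupffer cell or endothelial marker was called. The 9 T cell calls fell to 4 without NK of mouse 4 or of mouse 5 and to 5 without NK of mouse 6. The list of established genes was known to be high in NK cells in these data, so its direction is not independent evidence.

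The profiles of 8 members ran together across the 15 libraries. The Pearson r of each with the mean of the other 8 was 0.984 for Phactr3 and between 0.899 and 0.958 for 7 others, but 0.606 for Gramd3. Genes whose log2 CPM followed the mean of the 9 members most closely, among 11320 genes ranked, were Cma1 (0.992), Borcs7 (0.987), Clip4 (0.986), Klra4 (0.982) and S1pr5 (0.981). All of these points share the same libraries and the same contrast between NK cells and ILC1s, so the values describe likeness only. Clip4, which belongs to a family of microtubule-binding proteins, averaged 3.13 CPM in DN, 0 in FMSP, 0.0254 in DP and 15.5 in NK cells.

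Borcs7, which encodes a subunit of a complex that positions lysosomes, lies between Cyp17a1 and As3mt on chromosome 19. In the annotation of GRCm38.p6, Cyp17a1 spans chr19:46667165-46673000, Borcs7 chr19:46689906-46703382 and As3mt chr19:46707157-46741099, and Borcs7 ends 3.78 kb before As3mt starts. Borcs7 averaged 15.6 ± 4.94 CPM in DN (SD, n = 3), 6.31 ± 1.73 in FMSP, 6.17 ± 0.891 in DP and 104 ± 5.56 in NK cells (SD, n = 4 each). Its log2 difference between the ILC1 mean and NK was -3.61 ± 0.19 (SE; edgeR adjusted p = 1.89e-07). It was also higher in DN than in the mean of FMSP and DP (1.33 ± 0.23, SE; edgeR adjusted p = 0.0267), but not with the mouse as a block (0.132) or within mice 4 to 6 (0.0599). Of 7 neighbours of Cyp17a1 and As3mt tested, it was the only one called in either comparison without the block, and the list median against NK was -0.65. Wbp1l, the neighbour on the far side of Cyp17a1, stood at 67.3 CPM in DN, 95.2 in FMSP, 109 in DP and 149 in NK cells and was not called (edgeR adjusted p = 0.323). It was called lower with the mouse as a block (0.00396) and within mice 4 to 6 (0.00417), as was Trim8 (0.00656 and 0.00309), so that 3 of the 7 neighbours were lower with the block. Whether the counting used strand is not stated, and Cyp17a1, Gramd3 and Cdh22 overlap annotated non-coding genes or pseudogenes that have no entry of their own in the table.

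Of the peaks assigned to the members, 21 were called less accessible in liver ILC1s than in liver NK cells. Of the 42 tested, 0 were called higher by edgeR, whereas 18.7% of all peaks were called, 9.83% of all as higher and 8.85% as lower. The median log2 difference was -0.77 over the members' peaks and 0.00 over all peaks. The lower peaks belonged to 8 of the 9 genes, Cyp17a1 being the exception. Lower peaks made up 10 of 17 intron peaks (11.2% of all intron peaks), 6 of 13 promoter peaks (4.86%), 3 of 6 exon peaks (9.78%) and 2 of 6 intergenic peaks (11.1%). Peaks of 1 gene are not independent of each other.

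The largest difference was at an exon peak of Lpin1, chr12:16580185-16580972. It held 2.09 and 3.32 CPM in liver ILC1s, against 24.5 and 41.8 CPM in liver NK cells (log2 difference -3.55 ± 0.26, SE; edgeR adjusted p = 4.07e-39). Only 1 other of the 10 Lpin1 peaks was lower, the exon peak chr12:16583198-16584626 (-1.17 ± 0.20, SE; edgeR adjusted p = 1.5e-07). The intergenic peak with the most reads, chr12:16525684-16527015, held 36.5 and 47.1 CPM in liver ILC1s and 39.4 and 46.0 CPM in liver NK cells. The calls for Lpin1 thus stood at 2 of its 10 peaks, both in exons.

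An intron peak of Phactr3, chr2:178287824-178289406, held 11.97 and 11.7 CPM in liver ILC1s, against 75.1 and 89.3 CPM in liver NK cells (-2.79 ± 0.22, SE; edgeR adjusted p = 3.24e-33). The Phactr3 promoter peak chr2:178327162-178328197 was also lower (-1.37 ± 0.22, SE; edgeR adjusted p = 1.51e-08), and its other 2 peaks were not called. As3mt was the member with more than 2 peaks in which every peak was lower in liver ILC1s, 6 of 6, from -2.50 at the intron peak chr19:46713938-46714748 to -0.93 at the promoter peak chr19:46707008-46708131. The peak chr19:46707008-46708131 covers the promoter sequence printed for As3mt, and its call was lost when liver NK replicate 1 or liver ILC1 replicate 2 was left out.

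Both Klhl30 promoter peaks were lower in liver ILC1s. The peak chr1:91352178-91353212 held 8.97 and 6.53 CPM in liver ILC1s and 27.1 and 37.3 CPM in liver NK cells (-2.07 ± 0.22, SE; edgeR adjusted p = 9.49e-19). Cdh22 had 6 lower peaks of 12 tested, the strongest at the intron peak chr2:165169447-165170613 with 8.67 and 6.73 CPM in liver ILC1s and 28.1 and 38.6 CPM in liver NK cells (-2.13 ± 0.22, SE; edgeR adjusted p = 8.27e-20). The Cdh22 peak over the printed promoter, chr2:165233219-165235477, was not called between the liver populations, at 23.5 and 20.7 CPM in liver ILC1s and 29.1 and 26.7 CPM in liver NK cells (-0.35 ± 0.20, SE; edgeR adjusted p = 0.222). The 6 lower Cdh22 peaks were 5 in introns and 1 outside the gene.

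Sh2d1a had 1 peak, 2720 bases outside the gene, with 4.79 and 4.88 CPM in liver ILC1s and 12.3 and 15.4 CPM in liver NK cells (-1.51 ± 0.31, SE; edgeR adjusted p = 2.51e-05). The Rhpn1 promoter peak chr15:75703778-75705118 was lower by a smaller amount (-0.80 ± 0.24, SE; edgeR adjusted p = 0.0089), a call lost when liver NK replicate 2 or liver ILC1 replicate 2 was left out. Gramd3 had 1 lower peak of 4, the intron peak chr18:56446713-56447937, with 22.1 and 20.3 CPM in liver ILC1s and 35.8 and 34.4 CPM in liver NK cells (-0.73 ± 0.19, SE; edgeR adjusted p = 0.00219). The single Cyp17a1 peak held 5.53 and 3.90 CPM in liver ILC1s and 6.40 and 10.6 CPM in liver NK cells and was not called (-0.86 ± 0.35, SE; edgeR adjusted p = 0.063). The RNA of Cyp17a1 was at or near 0 in every ILC1 library. With 2 libraries per group, the lack of a call does not show that its peak was equally accessible in both liver populations.

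**Figure D3:**
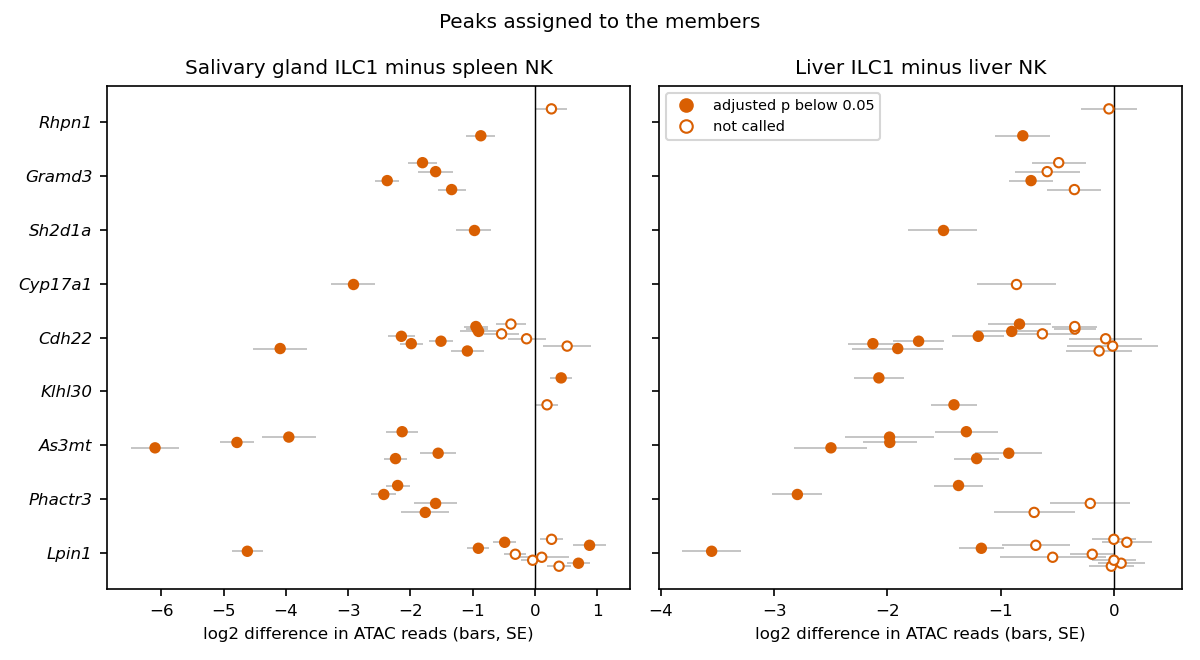
Log2 difference in ATAC reads at the 42 tested peaks of the 9 genes, for salivary gland ILC1 minus spleen NK (left) and liver ILC1 minus liver NK (right); bars are SE and filled points have an edgeR adjusted p below 0.05. In the liver panel all 21 filled points lie below 0, and in the left panel 28 lie below and 3 above 0.

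Salivary gland ILC1s and spleen NK cells differ in organ as well as in cell type. There 3 of the 42 peaks were higher and 28 lower in salivary gland ILC1s, whereas 48.2% of all peaks were called, 22.0% as higher and 26.2% as lower. The median was -1.04 over the members' peaks and -0.09 over all peaks. Lower calls in both pairs were shared by 18 of the 42 peaks and by 5.61% of all peaks. The 3 higher calls, at Klhl30 and at 2 Lpin1 peaks, were lost when spleen NK replicate 2 or salivary gland ILC1 replicate 1 was left out. The lower calls included 15 of 17 intron peaks (27.6% of all intron peaks) and 8 of 13 promoter peaks (21.5%). The exon peak of Lpin1 was again low, at 2.67 and 0.906 CPM in salivary gland ILC1s against 35.3 and 45.7 CPM in spleen NK cells (-4.62 ± 0.24, SE; edgeR adjusted p = 3.38e-76). Cyp17a1 was called here, at 1.30 and 1.11 CPM in salivary gland ILC1s against 9.17 and 9.08 CPM in spleen NK cells (-2.92 ± 0.36, SE; edgeR adjusted p = 5.07e-15). All 4 Gramd3 peaks were lower, the strongest being chr18:56446713-56447937 (-2.37 ± 0.19, SE; edgeR adjusted p = 3.54e-34).

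Klhl30 was the member with no lower peak in this pair. Its peak chr1:91352178-91353212 held 46.5 and 48.7 CPM in salivary gland ILC1s, 8.97 and 6.53 CPM in liver ILC1s, 39.2 and 31.8 CPM in spleen NK cells and 27.1 and 37.3 CPM in liver NK cells. Only the liver ILC1 libraries were low. Salivary gland ILC1s exceeded liver ILC1s by 2.64 ± 0.21 (SE; edgeR adjusted p = 1.6e-33). The difference between ILC1s and NK cells itself differed between the organ pairs by 2.49 ± 0.28 (SE; edgeR adjusted p = 2.9e-16). The small difference from spleen NK (0.42 ± 0.18, SE; edgeR adjusted p = 0.0371) was lost when any 1 library of this pair was left out. The second Klhl30 promoter peak, chr1:91350591-91351813, held 42.1 and 49.5 CPM in salivary gland ILC1s and 15.9 and 9.17 CPM in liver ILC1s. No RNA of salivary gland cells was analysed here, so it was not measured whether Klhl30 is transcribed there.

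**Figure D4:**
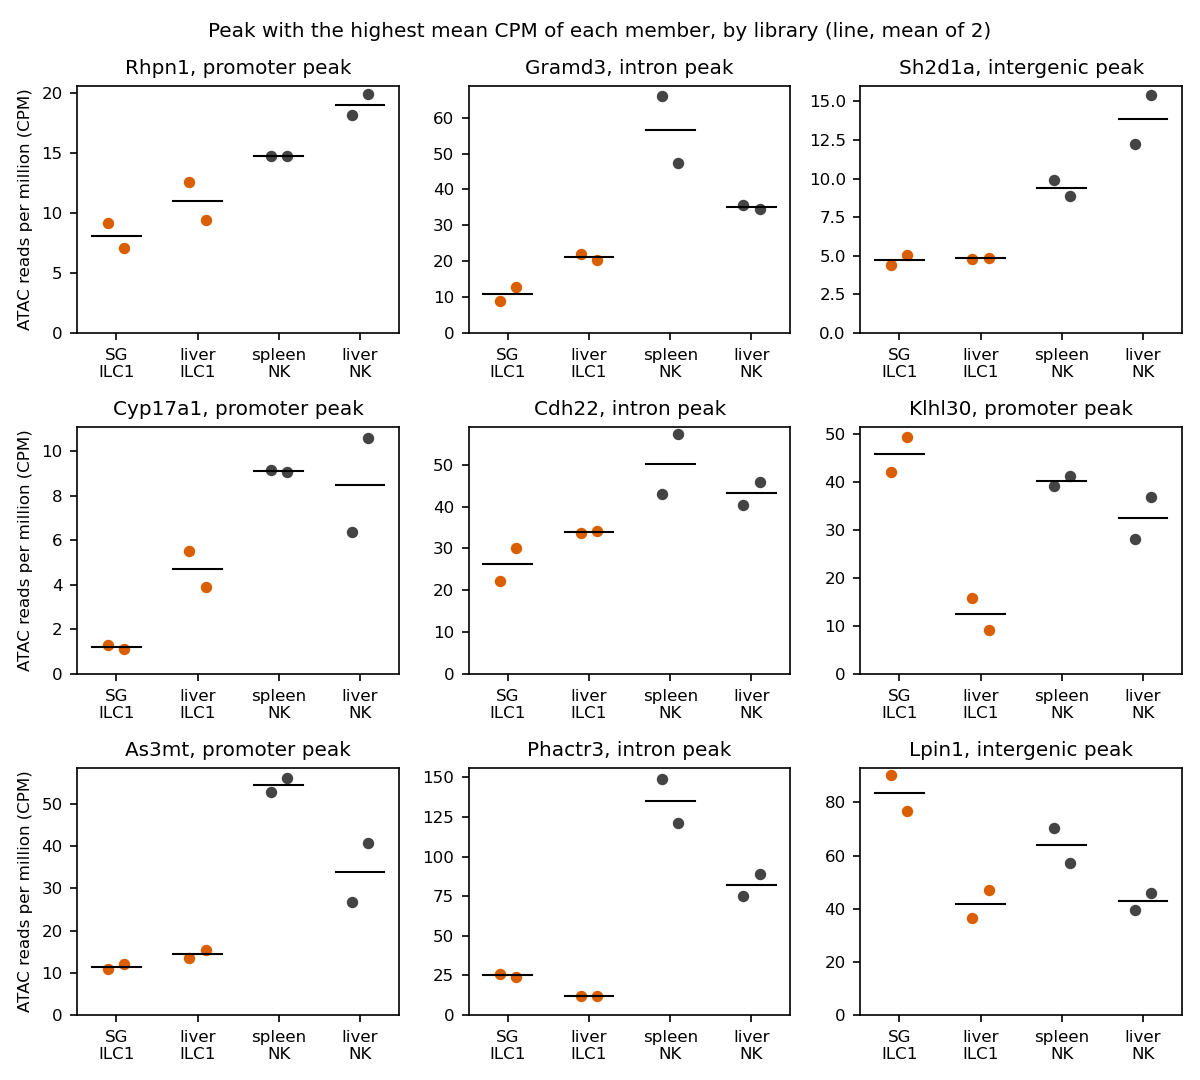
ATAC reads (CPM, scaled to a common library sum) at the peak of each member with the highest mean over the 8 libraries, for salivary gland (SG) ILC1s, liver ILC1s, spleen NK and liver NK cells; points are libraries and lines are means of 2. The Klhl30 promoter peak is low only in the 2 liver ILC1 libraries, and the Phactr3 intron peak is low in ILC1s of both organs.

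Between the 2 ILC1 groups, 11 member peaks were higher and 15 lower in the salivary gland, where 48.7% of all peaks were called, 22.8% as higher and 25.9% as lower. With libraries scaled by their totals alone the split was 7 higher and 20 lower, and the median of all peaks was -0.29 in place of -0.04. As3mt had 5 of its 6 peaks lower in the salivary gland. Between the 2 NK groups, 11 were higher and 2 lower in spleen (background 40.6%, 20.9% higher and 19.8% lower), but 4 were higher and 9 lower with totals alone, where the median of all peaks was -0.48 in place of -0.11. No direction is therefore given for the members as a group between spleen and liver NK cells. A difference between the organ pairs was called at 18 member peaks (background 30.0%, 13.5% higher and 16.6% lower), 3 with a higher and 15 with a lower value in the salivary gland and spleen pair, against 5 and 10 with totals alone.

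On chromosome 19, every tested peak assigned to Cyp17a1, Borcs7 or As3mt was lower in salivary gland ILC1s than in spleen NK cells. The As3mt intron peak chr19:46713938-46714748 held 0.274 and 0.247 CPM in salivary gland ILC1s, 2.99 and 2.54 CPM in liver ILC1s, 22.8 and 14.0 CPM in spleen NK cells and 13.7 and 17.4 CPM in liver NK cells. The log2 difference was -6.10 ± 0.39 (SE; edgeR adjusted p = 9.68e-52) for salivary gland ILC1s against spleen NK cells. It was -2.50 ± 0.32 (SE; edgeR adjusted p = 1.44e-12) for liver ILC1s against liver NK cells. The As3mt peak chr19:46733338-46734328 was likewise low in ILC1s of both organs, at 1.23 and 0.823 CPM in the salivary gland and 7.48 and 6.34 CPM in the liver, against 27.3 and 27.9 CPM in spleen NK cells and 26.2 and 27.8 CPM in liver NK cells. Of the 2 Borcs7 peaks, both were lower in the salivary gland and spleen pair and 1 in the liver pair. Wbp1l, on the far side of Cyp17a1, went the other way: of 10 peaks, 7 were higher and 1 lower in salivary gland ILC1s than in spleen NK cells, and 4 were higher and 0 lower in liver ILC1s than in liver NK cells. Cnnm2, on the far side of As3mt, had 2 peaks, of which 1 was higher in the salivary gland and spleen pair and 0 were called in the liver pair.

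**Figure D5:**
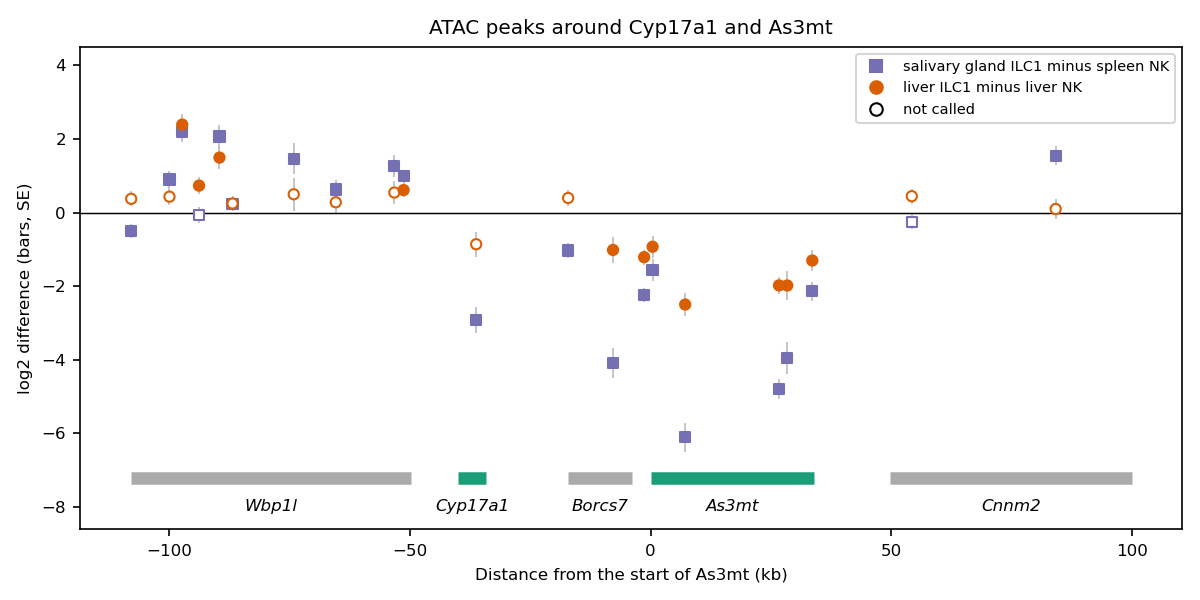
Log2 difference in ATAC reads at peaks around Cyp17a1 and As3mt, by distance in kb from the start of As3mt, for salivary gland ILC1 minus spleen NK (squares) and liver ILC1 minus liver NK (circles); bars are SE, open symbols were not called, and boxes at the bottom show the annotated genes. All 6 As3mt peaks lie below 0 in both pairs, and most Wbp1l peaks lie above 0.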

How the data were processed

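Liver RNA was measured in 15 libraries and chromatin accessibility in 8. Per the submitters' processing notes, Salmon 1.6, DESeq2, Bowtie2, SAMtools, MACS2 and the build mm10 were used. The RNA values deposited by the authors are expected counts per gene, all of them whole; whether gene length or strand entered them is not stated, so levels of different genes were not compared. The ATAC values deposited by the authors are read counts per peak of 1 shared peak set, with the gene and type assigned by the authors, and peak coordinates are printed as deposited. In 26 RNA entries, 0.265% of counts, a date had replaced the symbol, and these stayed in the fits unnamed.

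Each table was fitted whole with the quasi-likelihood test of edgeR 4.0.16 (R 4.3.3; limma 3.58.1): TMM scaling, filterByExpr at a minimum count of 10, robust dispersions, 1 mean per group, 11 (RNA) and 4 (ATAC) residual degrees of freedom. The p-values are 2-sided and Benjamini-Hochberg adjusted over all features, with calls made at an adjusted p below 0.05. Levels are CPM on TMM-adjusted library sizes. Shares are percents of the NK mean. Floors (3 counts over a group) and Poisson intervals (95%) cover counting error only. DESeq2 1.42.0 was an alternative. The fits were tested on simulated data. Gene names and positions came from RefSeq GRCm38.p6. Likeness used log2 CPM with 2 CPM added, among named genes averaging at least 1 CPM in NK libraries.

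The members, the gene lists and the tests were chosen with earlier results of these data known. The text names the 9 members, their called peaks and the peak of each with the highest mean CPM, up to 2 called genes of each list and direction, and the 5 genes most like the members. Borcs7 and Wbp1l belong to the list of neighbours. Lpin2, Alb, Klra9, Prf1 and the single T cell markers were named after their values were seen. So were the genes called only with the mouse as a block. The result of 1 list is not reported here.

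Each RNA library is labelled with its mouse, so libraries of 1 mouse are paired. Deviations from the group means correlated with a median r of 0.113 over 16 pairs within a mouse (0.0336 to 0.469) and of -0.0266 over 68 pairs between mice. Nothing says that the ATAC replicates came from separate animals, so their p-values measure the spread between libraries, which may be technical.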

Additional observations from a re-analysis of the deposited data

Results flagged for a closer look

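Among 21 sets of 4 libraries examined, 4 held a library far from the other 3 by Dixon's criterion (0.829 for 4 values), which chance gives in about 1 set of 20 where values vary freely. In 2 of the 4, Rhpn1 and Phactr3, the other 3 libraries were at 0, so any count meets the criterion and that rate does not apply. Sh2d1a stood at 16.2 CPM in FMSP of mouse 6, against 2.69 to 3.68 CPM in FMSP of the other mice; this library also had the highest sum of hepatocyte markers, 2484 CPM, and their part in the value was not tested. Klhl30 stood at 73.0 CPM in NK of mouse 1, against 28.5 to 32.2 CPM in the other NK libraries. Phactr3 was found in DP of mouse 5 at 1.85 CPM and was at 0 in the other DP libraries. Rhpn1 was found in FMSP of mouse 5 at 0.0150 CPM, which is 1 count.

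At 18 peaks the difference between ILC1s and NK cells was itself different between the salivary gland and spleen pair and the liver pair, by the interaction test of edgeR. The values that follow are log2 differences of the 2 differences, salivary gland and spleen pair minus liver pair. They were positive at both Klhl30 promoter peaks (1.604 and 2.49) and at 1 Lpin1 promoter peak (1.56). They were negative at all 4 Gramd3 peaks (-0.99 at the promoter, and -1.64, -1.01 and -1.32 in introns) and at the Cyp17a1 promoter peak (-2.07). As3mt had negative values at 1 promoter peak (-1.03) and 3 intron peaks (-3.60, -2.81 and -1.97). Cdh22 had them at an exon peak (-0.957) and 2 intron peaks (-2.19 and -0.95), Phactr3 at an intron peak (-1.39) and its promoter peak (-0.84), and Lpin1 at an exon peak (-1.07). The call at the Cdh22 exon peak was lost in 10 of 13 alternatives.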

How the results depend on the processing

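Of 151 called single results, 2341 comparisons with an alternative kept direction and call in 2156, lost the call in 185 and reversed in 0. Member peaks called in the liver pair numbered 21, with 17 to 22 over the fits leaving out 1 library and 18 to 22 over the other alternatives. In DESeq2 3 of these, all in or near Cdh22, were not called (adjusted p = 0.433, 0.0549 and 0.0644). The salivary gland and spleen pair gave 31 (27 to 33 leaving out 1 library, 29 to 32 otherwise), and the 2 ILC1 groups gave 26 (19 to 26 and 23 to 27). Spleen against liver NK gave 13, with 6 to 15 leaving out 1 library; both liver NK replicate 1 and spleen NK replicate 1 took it to 6. The test between organ pairs gave 18, with 11 to 17 leaving out 1 library, the 11 without liver NK replicate 1. Between FMSP and DP, members called numbered 0 in edgeR, 0 leaving out any library, and 1 in DESeq2. List genes called between the ILC1 mean and NK numbered 35, of them 13 higher and 22 lower (29 to 36 leaving out 1 library; the higher ones numbered 7 without NK of mouse 4 or 5). Between DN and the mean of FMSP and DP they numbered 7, with 5 to 9 leaving out 1 library, 16 in DESeq2 and 3 without the 3 libraries high in hepatocyte markers, where fewer samples entered. Over all features, calls ranged over the alternatives from 4298 to 11425 peaks in the liver pair, 19021 to 26968 in the salivary gland and spleen pair, 17457 to 25423 between ILC1 groups, 11046 to 23981 between NK groups and 11206 to 15845 between organ pairs. In RNA they ranged from 728 to 2392 genes for the ILC1 mean against NK, 8 to 443 for DN against the mean of FMSP and DP and 0 to 222 for FMSP against DP. The causes were not tested.

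With the mouse as a block, list genes called numbered 48 between the ILC1 mean and NK and 7 between DN and the mean of FMSP and DP, members called between FMSP and DP stayed at 0, and Borcs7 and Eomes lost their DN calls. ATAC replicates share only a number (r from -0.120 to 0.179 over 12 pairs). These pairs are not independent, since in each group of 2 libraries the deviations from the group mean mirror each other. With the replicate number as a block the liver pair gave 21 called peaks, and 109 of 109 called peak results kept their call. Liver ATAC libraries held 5609587 to 9957335 reads in peaks, fewer than those of the other organs.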
